A study of Homo sapiens with 12 samples.

Results

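The proteasome genes described here are 9 of the 60649 gene identifiers in the deposited count table. They were chosen by name: PSMB8, PSMB9 and PSMB10, which encode the inducible catalytic subunits of the immunoproteasome; PSMB5, PSMB6 and PSMB7, which encode the constitutive catalytic subunits that these replace; and PSME1, PSME2 and PSME3, which encode subunits of the PA28 activators. RNA was sequenced from AC16 cells, labelled wild type, a human line made by fusing ventricular cells with a fibroblast line, so all samples come from a single established line. Vehicle libraries were from cells given PBS and carry a 24 h label. Acute libraries were from cells collected directly after a 24 h exposure to 1000 U/mL of recombinant human IFN-α2a, a type I interferon. Recovery libraries followed the same 24 h pulse and 5 days without cytokine, with harvest labelled day 6. Repeat libraries followed a 24 h pulse, 4 days without cytokine and another 24 h pulse, with harvest labelled day 7. Each of the 4 groups held 3 libraries stated to be independent biological replicates.

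The labels disagree in places. One text names DMEM/F-12 as the medium and another RPMI 1640. Vehicle is said to have been given for matching intervals, yet each vehicle library is labelled 24 h, so in recovery and repeat against vehicle or acute, interferon history and time in culture as labelled cannot be told apart. The stated intervals of the repeat regimen add to fewer days than its day 7 label. Total estimated counts were 39.9 to 62.3 M per library (1 M is 1000000) and 18119 genes passed the count filter, all 9 proteasome genes among them. Of 16 cardiomyocyte markers, 1 or 2 reached a group mean of 1 TPM (transcript abundance scaled by gene length and library total), GATA4 with 3.85 to 5.34 TPM being 1 of them, and MYL7 and MYBPC3 had 0 counts in every library. The labelled cell type was therefore largely not reflected in its defining markers, whereas 8 of 8 fibroblast and stromal markers reached 1 TPM. Their summed level was 2692 to 2781 TPM in vehicle, 2071 to 2196 in acute, 2312 to 2382 in recovery and 1824 to 1925 in repeat libraries. COL1A1 alone made 1450, 1114, 1278 and 942 TPM of it on average. THY1 was the only 1 of the 8 not lower in acute than in vehicle, at 201 against 200 TPM. The part of this shift in summed level in the results was not tested.

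The proteasome is the barrel-shaped protease that degrades ubiquitin-tagged proteins. Its barrel, the 20S core, has outer rings of alpha subunits and inner rings of beta subunits, of which PSMB5, PSMB6 and PSMB7 carry the chymotrypsin-like, caspase-like and trypsin-like active sites. Cells exposed to interferon, and many immune cells without it, place PSMB8, PSMB9 and PSMB10 in those positions of newly built cores, which shifts the peptides produced toward ones that fit MHC class I molecules. The caps that open the barrel include the 19S complex, which uses ATP and ubiquitin, and PA28, which uses neither; PSME1 and PSME2 together form the cytosolic PA28 ring and PSME3 forms the nuclear one on its own.

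Sequence before the transcription start sites is shown because interferon acts on its target genes through short elements there. RefSeq windows (GRCh38.p14, 250 bases before to 50 after a start site) existed for 7 of the 9 genes, and PSMB6 and PSMB7 had no entry. The core of the interferon-stimulated response element was searched as GAAANNGAAA on both strands, with overlapping matches counted. It was found in 1248 of 34943 windows of 300 bases, or 3.57%. Of the 9 genes, 4 had a match, PSMB8, PSMB10, PSME1 and PSME2, and no match lay in the windows of PSMB9, PSMB5 or PSME3. TAP1, which encodes a peptide transporter subunit and is transcribed away from PSMB9 across a short shared interval, is given beside them. In the stretches below, written 5′ to 3′ on the strand of the gene, capitals mark the letters of the motif on either strand. The PSMB8 stretch, chr6:32844028-32844091 (minus strand), surrounds the other of its RefSeq start sites, inside the gene model, with the match at bases -4 to 5 from that start. The PSMB10 stretch is chr16:67936831-67936911 (minus strand, match at -21 to -12), that of PSME1 is chr14:24136159-24136213 (plus strand, match at 5 to 14), and that of PSME2 is chr14:24146591-24146678 (minus strand, match at -28 to -19). The TAP1 stretch is chr6:32853783-32853878 (minus strand) and holds a pair of overlapping matches from -134 to -119.
PSMB8: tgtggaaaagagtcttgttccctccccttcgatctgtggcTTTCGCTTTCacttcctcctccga
PSMB10: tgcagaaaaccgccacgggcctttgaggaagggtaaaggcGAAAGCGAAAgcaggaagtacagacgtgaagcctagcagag
PSME1: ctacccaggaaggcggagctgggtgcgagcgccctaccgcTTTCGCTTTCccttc
PSME2: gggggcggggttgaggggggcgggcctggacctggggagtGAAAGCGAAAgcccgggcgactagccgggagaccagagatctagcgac
TAP1: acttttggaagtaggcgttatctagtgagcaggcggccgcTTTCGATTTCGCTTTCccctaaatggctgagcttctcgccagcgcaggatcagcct

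The same bases as in the PSMB8 match, chr6:32844042-32844051, also lie in the window of PSMB8-AS1, a noncoding RNA read from the other strand. PSMB9, the gene with the highest fold change of the 9, is shown for the bases before its RefSeq start, chr6:32853942-32854191 (plus strand). Neither that motif nor a further motif, TTCNNNGAA, occurred in them.
PSMB9: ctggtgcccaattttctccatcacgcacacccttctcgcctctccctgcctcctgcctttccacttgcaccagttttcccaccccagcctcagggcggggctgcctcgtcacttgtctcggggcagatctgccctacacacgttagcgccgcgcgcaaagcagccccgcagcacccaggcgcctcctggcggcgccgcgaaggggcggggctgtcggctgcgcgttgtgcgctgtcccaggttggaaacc
The RefSeq start sites of TAP1 and PSMB9 are separated by 487 bases. The nearer of the TAP1 matches ends 354 bases before that PSMB9 start, outside the window searched for PSMB9. The gene model of PSMB9 begins further upstream, at chr6:32844136, where no window was searched for PSMB9. The PSMB8 match above and a TTCNNNGAA match at chr6:32844104-32844112 lie before that point. TTCNNNGAA occurred in 7.66% of all windows and, among the 9 genes, in those of PSMB8, PSMB5 and PSME3. A match describes letters in a window and does not show a bound site.

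Acute against vehicle libraries addressed how these transcripts respond to a single day of interferon. Of the 9 genes, 8 rose in acute against vehicle libraries, where 22.3% of all tested genes rose and 43.8% changed in either direction (edgeR quasi-likelihood test, adjusted p under 0.05 after Benjamini-Hochberg adjustment over 18119 genes). The inducible catalytic subunits rose between 1.72-fold and 7.31-fold, PSME1 and PSME2 by 1.87-fold and 2.27-fold, and PSMB5, PSMB7 and PSME3 by no more than 1.15-fold. PSMB6 was the only one of the 9 that was not called. In bulk RNA, a transcript carried by more cells and more transcript per cell cannot be told apart.

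PSMB9 (chr6:32844136-32859851, plus strand, GRCh38), the inducible counterpart of PSMB6, had 10.8, 9.82 and 9.84 TPM in the vehicle libraries and 75.6, 71.3 and 77.8 TPM in the acute libraries. It had 12.6, 13.6 and 13.01 TPM in the recovery libraries and 91.9, 98.5 and 87.2 TPM in the repeat libraries. No 2 groups overlapped, and their order was vehicle, recovery, acute, repeat. The log2 fold change of acute against vehicle was 2.87 ± 0.045 (SE; adjusted p = 7.55e-28). The gene model of PSMB9 contains that of TAP1 on the other strand, and overlaps PSMB8-AS1 on its own strand and the start of PSMB8 on the other. The libraries were stranded, but whether counting used the strand is not given in the sources used here, so reads from overlapping stretches could be credited to either gene.

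PSMB8 (chr6:32840717-32844679, minus strand), the inducible counterpart of PSMB5, lies beside PSMB9 in the MHC region. It had 24.8, 23.2 and 22.3 TPM in vehicle, 80.9, 79.8 and 81.1 TPM in acute, 26.6, 25.0 and 24.7 TPM in recovery, and 80.4, 84.4 and 82.0 TPM in repeat libraries. The 6 libraries taken right after a pulse stood far above the other 6. On TPM the vehicle and recovery ranges overlapped, and so did the acute and repeat ranges. On counts scaled by library totals after TMM adjustment between libraries (CPM), acute (105.8 to 107.2) and repeat (107.8 to 113.3) did not overlap. The acute change was 1.75 ± 0.035 on the log2 scale (adjusted p = 2.2e-25). PSMB10 (chr16:67934506-67936864, minus strand), the inducible counterpart of PSMB7, lies outside the MHC region. Its values were 20.2, 20.9 and 20.6 TPM in vehicle, 32.3, 33.4 and 28.9 TPM in acute, 19.1, 20.6 and 18.1 TPM in recovery, and 28.7, 33.0 and 29.9 TPM in repeat libraries. It rose least of the 3 inducible subunits, by 0.79 ± 0.049 on the log2 scale (adjusted p = 1.91e-13). The 1.72-fold change from counts was 1.53-fold as a ratio of mean TPM, since the gene length implied by its counts and TPM varied between libraries (coefficient of variation 7.58%, against a median over genes of 4.48%).

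**Figure D1:**
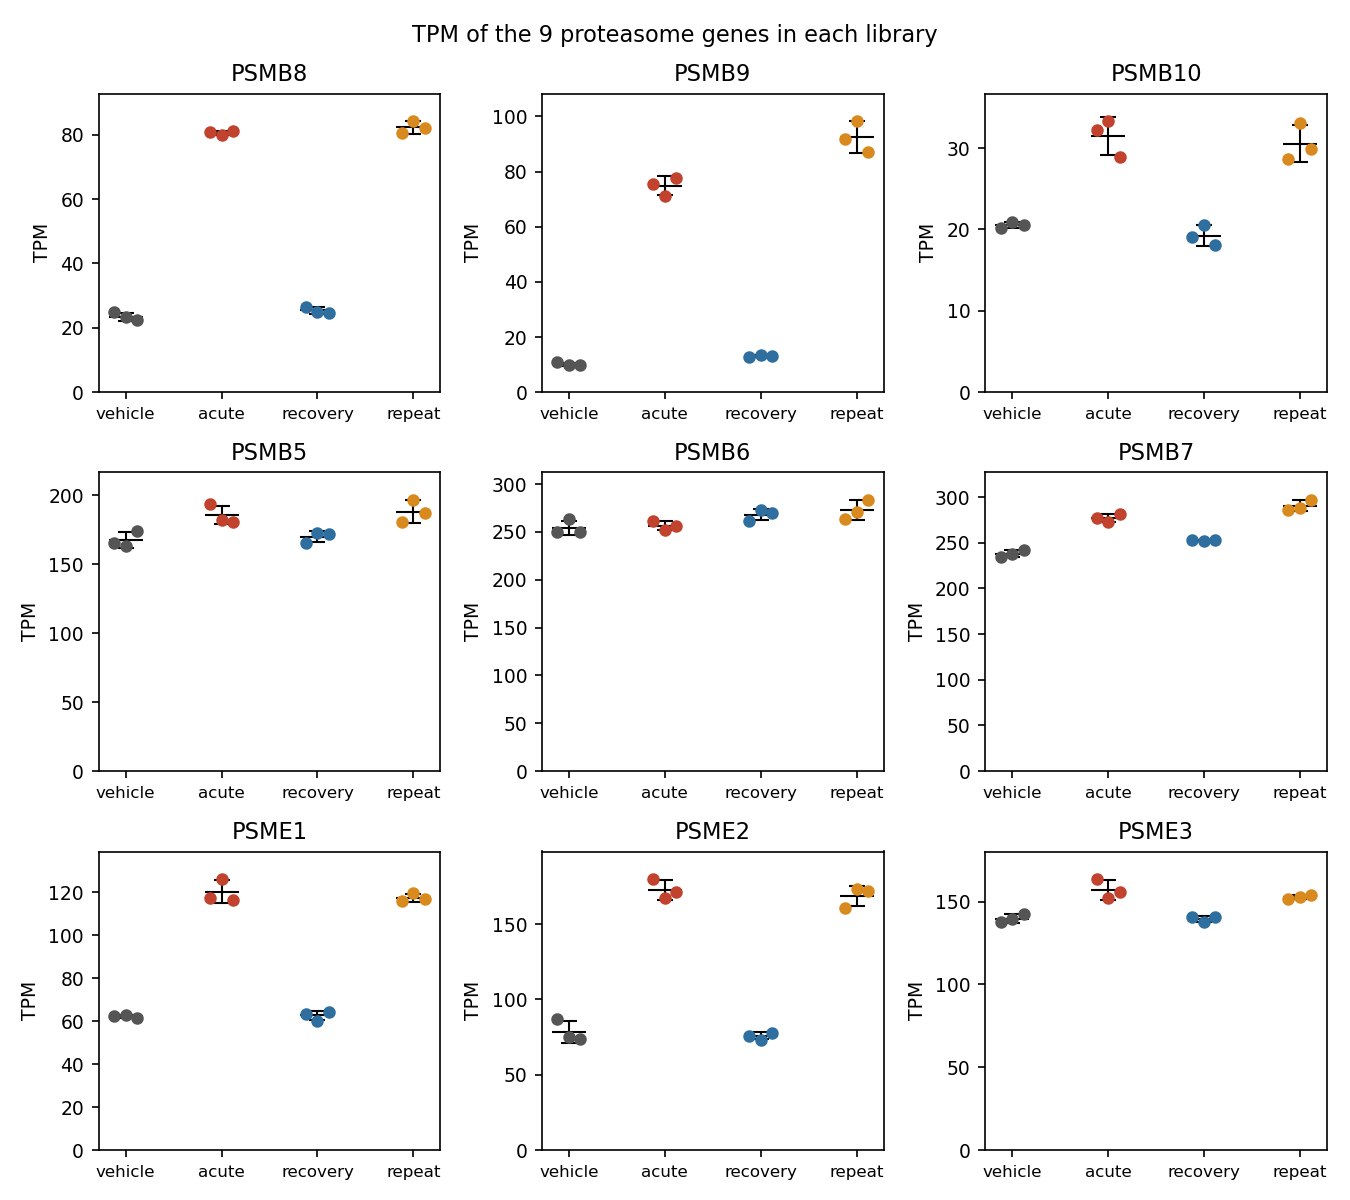
TPM of each of the 9 genes (vertical axes, from 0, scaled per gene) in each of the 12 libraries, grouped on the horizontal axis as vehicle, acute, recovery and repeat; points are libraries and the lines mean and SD of 3. PSMB8 stood at 79.8 to 84.4 TPM after either pulse against 22.3 to 26.6 TPM in the other 6 libraries, and PSMB6 stayed between 249.9 and 284 TPM throughout.

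The constitutive catalytic subunits started from much higher levels and moved little. PSMB5 (chr14:23016543-23035230, minus strand) had 165, 163 and 174 TPM in vehicle, 193, 182 and 181 TPM in acute, 165, 173 and 172 TPM in recovery, and 180.5, 197 and 187 TPM in repeat libraries. It rose in acute libraries by 0.16 ± 0.025 on the log2 scale (adjusted p = 3.92e-06), a call that did not pass when the implied gene length was taken into account (0.12, adjusted p = 0.0567). PSMB7 (chr9:124353465-124415444, minus strand) had 234, 238 and 242 TPM in vehicle, 277, 272 and 281 TPM in acute, 253, 251 and 252 TPM in recovery, and 286, 288 and 297 TPM in repeat libraries. None of its 4 groups overlapped on TPM, and the acute rise was 0.21 ± 0.023 (adjusted p = 1.39e-08). PSMB6 (chr17:4796144-4798502, plus strand) had 249.9, 263 and 250.2 TPM in vehicle, 262, 252 and 257 TPM in acute, 262, 273 and 269 TPM in recovery, and 263, 271 and 284 TPM in repeat libraries. The vehicle and acute ranges overlapped. Its acute log2 fold change had a 95% interval of -0.05 to 0.05 (adjusted p = 0.949).

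Among the PA28 genes, the interferon-responsive pair and PSME3 parted. PSME1 (chr14:24136163-24138967, plus strand), the alpha subunit, had 62.6, 62.8 and 61.5 TPM in vehicle, 118, 126 and 117 TPM in acute, 63.6, 60.3 and 64.2 TPM in recovery, and 116, 119.6 and 117 TPM in repeat libraries. PSME2 (chr14:24143362-24147570, minus strand), the beta subunit and its near neighbour, had 87.1, 74.9 and 74.0 TPM in vehicle, 180.1, 167 and 171 TPM in acute, 76.0, 73.4 and 78.0 TPM in recovery, and 161, 173 and 172 TPM in repeat libraries. Both sat high in every library taken after a pulse and showed overlapping vehicle and recovery ranges on TPM. On CPM the PSME2 ranges in vehicle (44.8 to 47.8) and recovery (48.0 to 48.2) did not overlap. Their acute changes were 0.90 ± 0.030 for PSME1 (adjusted p = 7.06e-20) and 1.18 ± 0.031 for PSME2 (adjusted p = 1.57e-22). The 6 PSME2 pseudogenes together held 0.585 to 0.946% as many counts as PSME2. The deposited counts of PSME2, as of PSMB10, were not whole in 12 of 12 libraries, and those of PSMB9 in 4 of 12. PSME3 (chr17:42824385-42843760, plus strand), the gamma subunit, had 138, 139 and 143 TPM in vehicle, 164, 152 and 156 TPM in acute, 140.4, 138 and 141 TPM in recovery, and 152, 153 and 154 TPM in repeat libraries. It rose after the pulse by 0.14 ± 0.021 on the log2 scale (adjusted p = 2.61e-06).

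**Figure D2:**
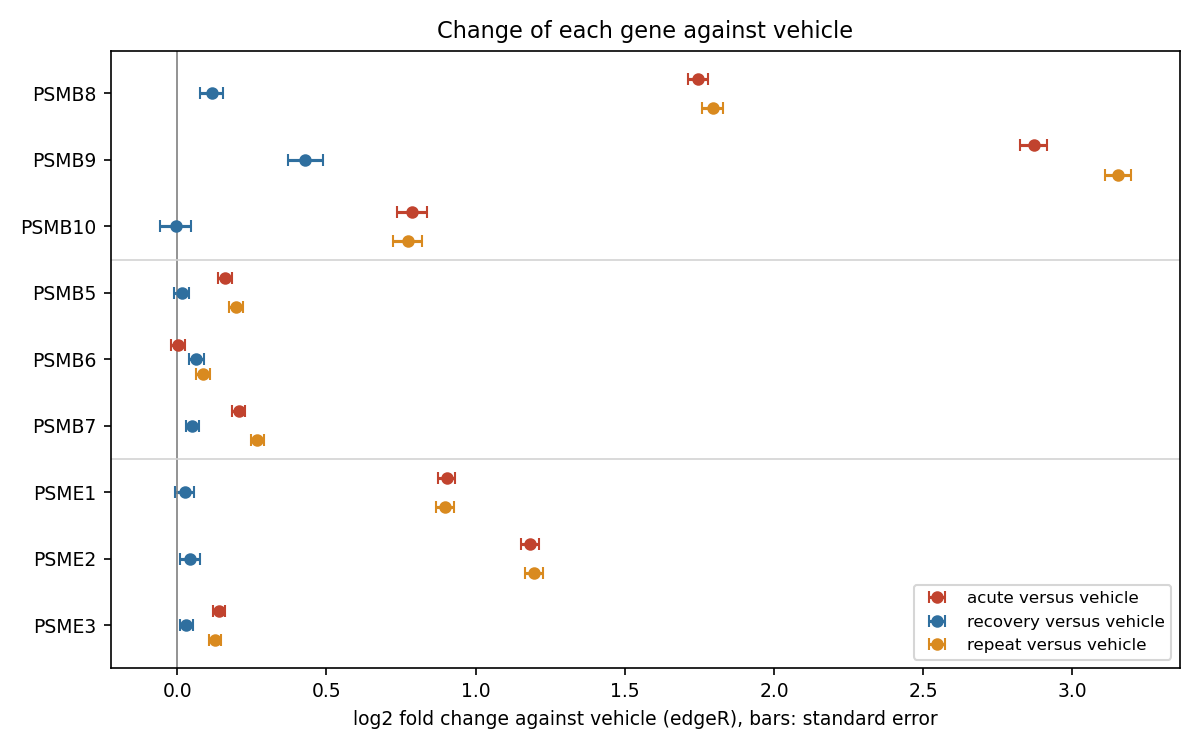
Log2 fold change against vehicle (horizontal axis, edgeR) of each gene in acute, recovery and repeat libraries; points are estimates and bars standard errors, with horizontal lines between inducible, constitutive and PA28 genes. The acute and repeat points lay between 0.00 for PSMB6 in acute and 3.15 for PSMB9 in repeat libraries. They were furthest apart for PSMB9, at 2.87 and 3.15. The recovery point of PSMB9 at 0.43 was the one recovery change that was called.

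Recovery against vehicle libraries showed how far the transcripts had returned after 5 days without interferon. PSMB9 alone of the 9 genes was still called different from vehicle, 1.35-fold higher, where 3.03% of all tested genes were higher and 5.94% were called in either direction. Its log2 fold change was 0.43 ± 0.058 (edgeR adjusted p = 1.09e-05). Each recovery library exceeded each vehicle library, but on CPM this also held for PSMB6, PSMB7 and PSME2, which were not called. PSMB8 had a log2 fold change of 0.11 ± 0.039 that did not pass (adjusted p = 0.0835). Without vehicle replicate 1, the vehicle library with the highest PSMB8 level, it passed, with 0.16 (adjusted p = 0.0207). The remaining 7 genes had log2 fold changes between -0.01 (PSMB10, 95% interval -0.11 to 0.10) and 0.06 (PSMB6, 95% interval 0.01 to 0.11, adjusted p = 0.15). PSMB7 had 0.05 (95% interval 0.004 to 0.097, adjusted p = 0.239). The unadjusted intervals of PSMB6 and PSMB7 thus lay above 0, but neither gene passed after adjustment.

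Against the acute libraries, 8 of the 9 genes were lower after recovery, where 20.7% of all tested genes were lower and 20.4% higher. PSMB9 fell by 2.44 on the log2 scale, PSMB8 by 1.63, PSME2 by 1.14, PSME1 by 0.88 and PSMB10 by 0.79. PSMB7, PSMB5 and PSME3 fell by 0.16, 0.14 and 0.11. As a share of the acute rise in mean TPM, 37.4% remained for PSMB7, 14.1% for PSMB5, 4.51% for PSMB9, 3.45% for PSMB8 and 0.68% for PSME1. The measure breaks down where the rise was small: PSMB6 rose 1.01-fold and gave 621%. PSMB7 and PSMB5 were not called in recovery against vehicle (edgeR adjusted p = 0.239 and 0.839). PSMB10, PSME2 and PSME3 were below their vehicle mean on TPM (-11.9%, -3.06% and -0.94% of the acute rise). From counts, their log2 fold changes in recovery against vehicle were -0.01, 0.04 and 0.03, and none was called. PSMB6 was called higher in recovery than in acute libraries by 0.06 ± 0.025 (adjusted p = 0.0495), a call lost in most alternatives.

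Repeat libraries were set against the same vehicle libraries as acute and recovery, and all 9 genes were higher, where 23.4% of all tested genes were higher and 46.3% were called in either direction. PSMB9 was 8.90-fold higher, at 3.15 ± 0.044 on the log2 scale. PSMB8 was higher by 1.79 ± 0.034, PSME2 by 1.20 ± 0.030, PSME1 by 0.90 ± 0.030 and PSMB10 by 0.77 ± 0.049. PSMB7 was higher by 0.27 ± 0.022, PSMB5 by 0.20 ± 0.024, PSME3 by 0.13 ± 0.021 and PSMB6 by 0.09 ± 0.024 (adjusted p = 0.00419). The PSMB6 call did not pass with the implied gene length taken into account (adjusted p = 0.0906). Against the recovery libraries, 8 of the 9 were higher, where 21.1% of all tested genes were; PSMB6 had 0.02 ± 0.024 (adjusted p = 0.486).

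Whether the end of the later pulse differed from the end of the first was tested directly. Of the 9 genes, 2 were higher in repeat than in acute libraries, where 1.77% of all tested genes were higher and 4.2% were called in either direction. PSMB9 was 1.22-fold higher, 0.28 ± 0.034 on the log2 scale (adjusted p = 5.18e-06), and its lowest repeat library, 87.2 TPM, stood above its highest acute library, 77.8 TPM. The size of the difference was similar on TPM, 0.30, and with the implied gene length as an offset, 0.32, but neither passed (adjusted p = 0.135 and 0.128). PSMB6 was 0.08 ± 0.025 higher (adjusted p = 0.0478), a call lost in most alternatives, and without repeat replicate 1 the called genes were 3, with PSMB7 at 0.08 (adjusted p = 0.0259). For PSMB8 the difference was 0.05 (95% interval -0.01 to 0.11, adjusted p = 0.447). For PSMB10 it was -0.01 (95% interval -0.11 to 0.08), for PSME1 -0.01 (-0.06 to 0.05) and for PSME2 0.02 (-0.04 to 0.07).

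The response to the later pulse, from recovery to repeat, was then compared with the response to the first, from vehicle to acute. None of the 9 genes was called different by edgeR (0 of 9, where 0.651% of all tested genes were), a count near that share. In each of the 22 alternative analyses, DESeq2 and limma among them, 0 of 9 were called. At an unadjusted p under 0.05 there was 1, PSMB9, whose log2 difference was -0.15 ± 0.067 (95% interval -0.28 to -0.01, adjusted p = 0.432). PSMB8 had -0.07 (95% interval -0.17 to 0.03, adjusted p = 0.694) and the other 7 genes lay between -0.04 and 0.02. For PSMB9, therefore, the level at the end of the later pulse was called higher than at the end of the first, while the size of the response was not called different.

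Ratios within a library do not depend on scaling between libraries. PSMB8 transcripts were 14.02 ± 1.11% of PSMB5 transcripts on TPM in vehicle (SD, n = 3), 43.5 ± 1.49% in acute, 15.0 ± 0.978% in recovery and 43.8 ± 0.849% in repeat libraries. PSMB9 was 4.00 ± 0.31% of PSMB6 in vehicle, 29.2 ± 1.02% in acute, 4.88 ± 0.099% in recovery and 34.0 ± 2.90% in repeat libraries. PSMB10 was 8.64 ± 0.139% of PSMB7 in vehicle, 11.4 ± 1.02% in acute, 7.63 ± 0.525% in recovery and 10.5 ± 0.825% in repeat libraries. Each inducible subunit thus stayed below its counterpart in every library. Summed over the 6 catalytic genes, the inducible ones made up 7.59 ± 0.302% of the TPM in vehicle, 20.6 ± 0.110% in acute, 7.72 ± 0.247% in recovery and 21.5 ± 0.818% in repeat libraries.

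For each of these measures the acute and vehicle libraries did not overlap, which with 3 against 3 gives an exact two-sided permutation p of 0.1, the smallest possible (adjusted p = 0.1304 over 30 comparisons). The share of inducible subunits rose from 7.34 to 7.92% in vehicle to 20.5 to 20.7% in acute libraries. Recovery and vehicle shares overlapped (exact permutation p = 0.7), and so did acute and repeat shares (exact permutation p = 0.3). PSMB10 relative to PSMB7 was lower in each recovery library, 7.16 to 8.20%, than in each vehicle library, 8.51 to 8.79% (exact permutation p = 0.1, the smallest possible), although neither gene was called in that comparison. With estimated counts in place of TPM the log2 difference went from -0.18 to -0.05 (exact permutation p = 0.7). PSME1 and PSME2 summed equalled 101 ± 7.03% of PSME3 in vehicle, 187 ± 5.95% in acute, 99.2 ± 2.00% in recovery and 187 ± 4.53% in repeat libraries.

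**Figure D3:**
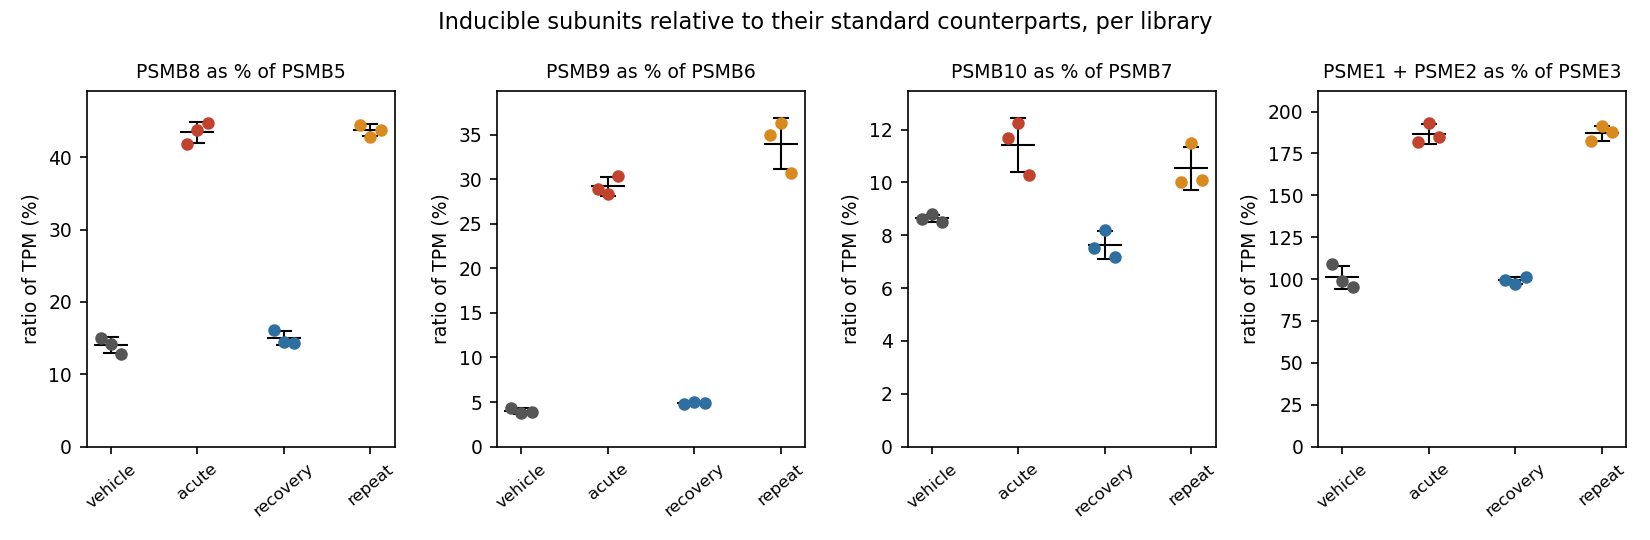
Ratio of TPM within each library in percent (vertical axes, from 0) for PSMB8 to PSMB5, PSMB9 to PSMB6, PSMB10 to PSMB7 and PSME1 plus PSME2 to PSME3, by group; points are libraries and the lines mean and SD of 3. PSMB9 to PSMB6 went from 4.00% in vehicle to 29.2% in acute and 34.0% in repeat libraries, whereas PSMB10 to PSMB7 spanned 7.16 to 12.3% over all 12.

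Ordered by mean TPM, the 9 genes ran PSMB6, PSMB7, PSMB5, PSME3, PSME2, PSME1, PSMB8, PSMB10 and PSMB9 in vehicle and in recovery libraries. In acute libraries PSMB7 stood above PSMB6, PSME2 above PSME3 and PSMB9 above PSMB10. In repeat libraries PSMB9 also stood above PSMB8, 92.5 against 82.3 TPM on average, so the lowest of the inducible catalytic transcripts at rest was the highest after the later pulse. Neighbours in these orders had ranges over libraries that did not overlap in any group.

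The rest of the 26S proteasome was counted from named lists. Of the 30 other standard subunits, 27 rose in acute against vehicle libraries and 0 fell, where 22.3% of all tested genes rose. The count that rose was between 19 and 27 in the alternative analyses. Their median log2 fold change was 0.16 against 0.00 over all tested genes. The 7 genes of the alpha ring all rose, led by PSMA3 (0.41 ± 0.032), PSMA5 (0.29 ± 0.029) and PSMA1 (0.27 ± 0.029). Of the 4 beta subunits without an active site, 3 rose: PSMB3 (0.18 ± 0.026), PSMB2 (0.16 ± 0.023) and PSMB4 (0.09 ± 0.024), the last not called with the implied gene length as an offset (adjusted p = 0.148). The 6 ATPases of the 19S cap, which unfold the substrate, all rose, among them PSMC4 (0.35 ± 0.024), PSMC6 (0.31 ± 0.031) and PSMC1 (0.31 ± 0.040). Of its 13 other subunits 11 rose, led by the ubiquitin receptor ADRM1 (0.33 ± 0.022), PSMD6 (0.24 ± 0.038) and PSMD11 (0.20 ± 0.023). PSMB5, PSMB7 and PSME3, at 0.14 to 0.21, lay inside the range of these 30 genes, 0.00 to 0.41, and the 3 inducible subunits, PSME1 and PSME2 lay above it.

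**Figure D4:**
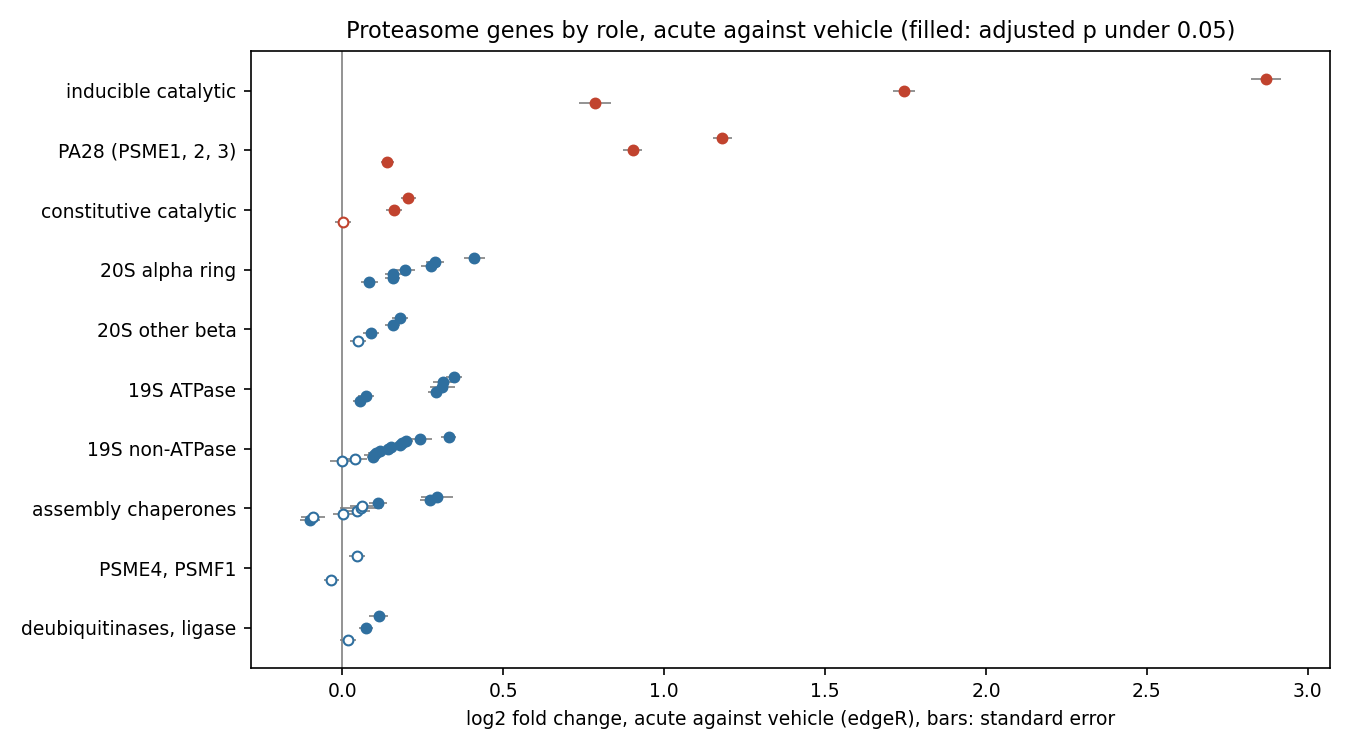
Log2 fold change of acute against vehicle (horizontal axis, edgeR) of proteasome genes arranged by role; red points are the 9 genes described here, blue points other proteasome genes, bars standard errors, filled points adjusted p under 0.05. The inducible catalytic genes and the upper 2 PA28 genes stood at 0.79 to 2.87, and all other genes shown at -0.10 to 0.41.

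These small changes also returned. In recovery against vehicle, where 5.94% of all tested genes were called and 3.03% were higher, 3 of the 30 standard subunits were called, each higher. They were ADRM1 by 0.11 ± 0.022 and, named after their values were seen, PSMC5 by 0.08 ± 0.023 and PSMD2 by 0.07 ± 0.021. That count fell to 0 on TPM or with the implied gene length, and to 1 without vehicle replicate 1 or 2 or any 1 of the recovery libraries. Against acute libraries, 23 of the 30 (median -0.14) fell with recovery, where 20.7% of all tested genes fell. In repeat against vehicle libraries 29 of 30 (median 0.20) rose, where 23.4% of all tested genes did. From recovery to repeat 27 rose, where 21.1% of all tested genes did. Between repeat and acute libraries, where 4.2% of all tested genes were called, 2 of the 30 were called, both higher. These were PSMA2 (0.11 ± 0.026) and SEM1 (0.14 ± 0.039), both named after their values were seen and both lost on TPM. Their count went to 0 without acute replicate 2 or 3 or repeat replicate 2, to 1 without vehicle replicate 1, recovery replicate 2 or 3 or repeat replicate 3, and to 7 without repeat replicate 1.

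Factors that build or regulate the particle were counted in the same way. Of 9 assembly chaperones, 3 rose in acute libraries and 1 fell, a share close to the 43.8% of all tested genes called there. The gene that fell was PSMD9, named after its value was seen (log2 fold change -0.10, adjusted p = 0.00957). PSMG4, which helps build the alpha ring, rose by 0.30 ± 0.050, POMP, the maturation factor of the beta rings, by 0.27 ± 0.032, and PSMD5, a chaperone of the 19S base, by 0.11 ± 0.028, the last call being lost on TPM. POMP averaged 50.3 TPM in vehicle, 62.3 in acute, 51.7 in recovery and 65.3 in repeat libraries. The alternative activator PSME4 (0.05 ± 0.026, adjusted p = 0.168) and the inhibitor PSMF1 (-0.03 ± 0.025, adjusted p = 0.295) were not called, and PSMB11 and PSMA8, subunits of thymus and testis, were below the count filter. Of the deubiquitinases on the 19S cap, UCHL5 rose by 0.11 ± 0.030 and USP14 by 0.07 ± 0.022, and each lost its call in an alternative, UCHL5 with the implied gene length as an offset (0.17, adjusted p = 0.0748) and USP14 without scaling beyond library totals (adjusted p = 0.0632).

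NFE2L1, the factor that raises proteasome genes when proteasome activity is short, rose by 0.23 ± 0.019 in acute libraries. Of the other 4 genes of its processing pathway, 3 rose, where 22.3% of all tested genes did, among them the ubiquitin ligase SYVN1 (0.29 ± 0.040). DDI2, the protease that activates NFE2L1, fell by 0.18 on the log2 scale (adjusted p = 0.000577). The DDI2 call was lost on TPM (-0.05, adjusted p = 0.829). In repeat against vehicle libraries NFE2L1 was again higher, by 0.22 ± 0.019, and in recovery it had -0.01 ± 0.019 (adjusted p = 0.942).

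Of 7 transcription factors and co-activators named for the inducible genes, 6 were tested, since IRF8 had 0 TPM in every library. In acute libraries 4 rose, where 22.3% of all tested genes rose and 43.8% changed. SP1, named after its value was seen, was the 1 that fell (log2 fold change -0.17). IRF9 and STAT2, subunits of the interferon-stimulated transcription complex, rose by 2.33 ± 0.034 and 1.72 ± 0.035, NLRC5, the co-activator of MHC class I genes, by 1.38 ± 0.036, and IRF1 by 0.58 ± 0.044. After recovery, IRF1 was 0.16 ± 0.046 higher than vehicle (adjusted p = 0.0393), a call lost in DESeq2 (adjusted p = 0.0607), in limma-voom, on TPM and without any 1 of the vehicle replicates 2 and 3 or the recovery replicates. NLRC5 was not called (0.10 ± 0.039, adjusted p = 0.154) but did pass on TPM, with 0.40 (adjusted p = 0.0102). Between repeat and acute libraries, IRF1 (0.01, adjusted p = 0.927) and NLRC5 (-0.06, adjusted p = 0.382) were not called, and STAT2 was lower (log2 fold change -0.15, adjusted p = 0.01), a call lost on TPM and without acute replicate 1 or 3 or repeat replicate 2.

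Around PSMB8 and PSMB9 on chromosome 6, TAP1 rose by 2.92 ± 0.029 in acute libraries, where 22.3% of all tested genes rose. TAP2, its partner in the transporter, rose by 2.10 ± 0.024 and PSMB8-AS1 by 1.41 ± 0.079. TAP1 stood at 8.92 TPM on average in vehicle, 68.0 in acute, 10.4 in recovery and 70.3 in repeat libraries. HLA-DOB had 2.10 ± 0.832 (adjusted p = 0.0489) from levels no higher than 0.167 TPM, and lost its call in most alternatives. After recovery, TAP1 (0.20 ± 0.034, adjusted p = 0.000281) and TAP2 (0.17 ± 0.026, adjusted p = 4.72e-05) were still called higher than vehicle, where 3.03% of all tested genes were. Both had smaller values than PSMB9, and the difference between these values was not tested. The TAP2 call was lost on TPM (0.17, adjusted p = 0.267). Between repeat and acute libraries TAP1 had 0.05 ± 0.024 (adjusted p = 0.249) and TAP2 -0.01 ± 0.022 (adjusted p = 0.945), where PSMB9 had 0.28. TAP2 was the only 1 of the 5 tested genes of this neighbourhood whose response was called different between pulses, where 0.651% of all tested genes were. Its response was smaller for the later pulse (log2 difference -0.17 ± 0.034, adjusted p = 0.00898). That call was lost on TPM (-0.14, adjusted p = 0.773) and without recovery replicate 3 (-0.15, adjusted p = 0.0561).

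Genes with the most similar pattern were sought among 11079 genes with a mean of at least 5 CPM, scaled by TMM as above. Likeness was the smallest Euclidean distance over the 3 log2 fold changes against vehicle. The nearest to PSMB9 were LY6E, at distance 0.106, IFI44 and UBE2L6. LY6E had 2.84 in acute, 0.51 in recovery and 3.09 in repeat libraries. The nearest to PSMB8 were SP100 (distance 0.0708), DSP and PHF11. PSMB10 lay closest to N4BP1 (0.0276), CCN2 and IGSF8, PSME1 to SCO2 (0.0532), SLC25A28 and BLZF1, and PSME2 to APOBEC3D (0.0408), BTN3A3 and TRIM38. None of the 5 was among the 3 nearest genes of another.

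Leukocytes hold immunoproteasomes without added interferon, so their markers were read in the same libraries. The 12 markers summed to 112 to 118 TPM in vehicle, 270 to 296 TPM in acute, 138 to 147 TPM in recovery and 275 to 287 TPM in repeat libraries, of which CD68 alone, which other cells also transcribe, made 113, 278, 138 and 279.6 TPM on average. The defining markers of T and B cells, CD3E and MS4A1, had 0 counts in every library, and PTPRC, found on all leukocytes, had group means of 0.997 to 1.65 TPM, lowest in the repeat group. The part of the CD68 rise in the results was not tested.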

How the data were processed

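Per the labels, poly(A) RNA from 325 ng of total RNA was turned into stranded libraries (12 PCR cycles) for single-end sequencing of 75 bp. STAR 2.7.11a, featureCounts 2.0.3, cutadapt 4.3, Trim Galore 0.6.10, Picard 2.27.5, edgeR and the build GRCh38.p13 are listed, per the submitters' processing notes; the design text names GENCODE 41 and DESeq2. The authors deposited estimated counts per gene, of which 25.49% of nonzero values were not whole, and a matching table of TPM. Total counts were 39.9 to 62.3 M per library, which sets counting error only.

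Symbols came from GENCODE 44 by identifier (60507 of 60649 matched), and gene coordinates are from that annotation. Counts were rounded, filtered (filterByExpr), TMM-scaled and tested in 1 robust edgeR 4.0.16 quasi-likelihood fit of the 12 libraries (R 4.3.3), with a mean per group and Benjamini-Hochberg adjustment over 18119 genes. The common biological coefficient of variation was 2.67%. The test was checked on simulated counts. Ratios were taken on TPM per library and compared by exact two-sided permutation. DESeq2 1.42.0 and limma 3.58.1 (voom, and trend on log2(TPM + 0.5)) were among the alternatives, as was an offset for each gene's length in a library as implied by its count and TPM.

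The text names the 9 genes in each comparison, up to 3 genes of each other list with the largest called acute change, list genes called beyond 0.5 on the log2 scale, some genes always named (USP14, POMP, PSME4, PSMF1, NFE2L1, IRF1, NLRC5, TAP1) and the 3 nearest genes in pattern. Members and lists were chosen with earlier results of these data known. One gene that this rule names is not reported here.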

Additional observations from a re-analysis of the deposited data

How the results depend on the processing

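Of 1440 checks of single-gene results for the 9 proteasome genes, 1366 kept direction and side of the threshold, 33 lost and 2 gained a call, and 39 changed sign. The cause of the changes was not tested. On TPM and with the implied gene length as an offset, the genes called over the whole table numbered 4350 and 4431 for acute against vehicle (7938 as reported), 135 and 180 for recovery against vehicle (1076), 4691 and 4798 for repeat against vehicle (8391), 3856 and 3928 for recovery against acute (7448), 3840 and 3981 for repeat against recovery (7546), 5 and 10 for repeat against acute (761), and 5 and 11 for the difference between the responses (118). That last count was 235 with DESeq2, 50 with limma-voom and 333 with no filter. Leaving out 1 library gave 624 to 1167 genes for recovery against vehicle, 337 to 1218 for repeat against acute and 56 to 323 for the difference between responses. Of the 9 genes, those higher in recovery than acute were 0 with DESeq2, limma-voom, TPM, the length offset or no filter, and 0 to 1 without 1 library. Those higher in repeat than acute were 1 with DESeq2 size factors, limma-voom or only the 2 groups compared, 0 on TPM and with the offset, and 1 to 3 without 1 library. Those higher in recovery than vehicle were 1 to 2 without 1 library. Of the 30 other standard subunits, 0 were higher in recovery than vehicle on TPM and with the offset, and 1 to 4 without 1 library. Higher in repeat than acute were 1 with limma-voom or only the 2 groups compared, 0 on TPM and with the offset, and 0 to 7 without 1 library. The comparison of responses has no version with only the 2 groups compared, since it needs all 4.

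Replicate numbers did not pair the samples: none of 18 correlations of deviations between same-numbered libraries exceeded 0.1 (-0.082 to 0.076). With the replicate number as a block, 1 of the 30 standard subunits was higher in repeat than acute libraries instead of 2.

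The log2 values that changed sign were near 0. For acute against vehicle, PSMB6 had -0.0248 with upper quartile scaling, -0.0215 with no scaling beyond library totals, -0.0121 with the offset, -0.0003 with no filter and -0.0092 to 0.021 without 1 library, and PSMD5 had -0.0005 with the offset. For recovery against vehicle, PSME2 had -0.0501 on TPM and -0.0526 with the offset, PSME3 had -0.0016 on TPM, and without 1 library PSMB10 had -0.0447 to 0.0488 and PSMB8-AS1 -0.0892 to 0.0744. For repeat against recovery, PSMB6 had -0.0009 with upper quartile scaling. For repeat against acute, values on TPM and with the offset were -0.0353 and -0.0221 for PSME2, 0.0549 and 0.0701 for NLRC5, and 0.0378 and 0.0512 for TAP2, and with no filter 0.0026 for PSME1 and 0.0031 for TAP2. Without 1 library they spanned -0.0177 to 0.0054 for PSME1, -0.0056 to 0.047 for PSME2, -0.0615 to 0.0159 for PSMB10, -0.0165 to 0.0069 for TAP2, -0.0012 to 0.0244 for IRF1 and -0.0099 to 0.0581 for PSMB8-AS1. For the difference between responses, PSMB10 had 0.0005 with no scaling, 0.0513 on TPM, 0.0627 with the offset, 0.0009 with no filter and -0.0621 to 0.0311 without 1 library. PSMB5 had -0.0029 on TPM and -0.0041 to 0.0465 without 1 library, PSMB7 -0.016 on TPM, -0.0052 with the offset and -0.0008 to 0.033 without 1 library, and PSME2 0.0147, 0.0305 and -0.0484 to 0.0056. The log2 ratio of PSME1 plus PSME2 to PSME3 in recovery against vehicle was 0.0058 with estimated counts in place of TPM and -0.0649 to 0.0317 without 1 library. In repeat against acute it was -0.0142 to 0.0299 without 1 library, and that of PSMB8 to PSMB5 was -0.017 to 0.0318. Of the genes called in repeat against acute, 42.2% were higher as reported, 60% on TPM and 53.2% with no filter, and in recovery against vehicle 51% and, on TPM, 63%. With 3 libraries a group, the permutation tests of ratios could not reach 0.05.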
